A study of Mus musculus with 4 samples.

Results

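Laminins and integrins, the chains of the main basement membrane protein family and of its cell surface receptors, were read in PyMT-A mouse mammary tumour cells with and without retroviral Jagged1. Members were taken by symbol, under a rule set when earlier results of these data were known. It took in Lama, Lamb or Lamc with 1 digit, Itga or Itgb with a number, and Itgae, Itgal, Itgam, Itgav and Itgax. This gave 35 of the 33677 gene symbols in the count table, made up of 11 laminin chains, 16 integrin α chains and 8 integrin β chains. The symbols Itga2b, Itgad and Itgb2l lie outside that rule, and their counts in vector 1, vector 2, Jagged1 1 and Jagged1 2 were 8, 17, 21 and 17 for Itga2b, 0, 0, 5 and 0 for Itgad, and 2, 7, 10 and 13 for Itgb2l.

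PyMT-A is a mammary tumour cell line of the mouse strain FVB/NJ, named after the polyoma virus middle T oncogene. The vector line was infected with a PMSCV-puro virus and the Jagged1 line with a PMSCV-Jagged1 virus, both were grown in DMEM with serum, and each gave 2 poly(A) RNA libraries. Jagged1 is a ligand of Notch receptors. Nothing in the labels says whether either line is a clone or a pool, or that the 2 libraries of a line came from separate cultures, so p-values measure only the spread between these libraries, which may be technical. Library totals ran from 12136227 to 20835208 counts, and the members took between 0.629% and 0.690% of them. The transduced gene, Jag1, had 159 and 112 counts in the vector libraries and 5676 and 4493 in the Jagged1 libraries. Whether the viral cDNA is the mouse one is not given. Epithelial marker genes of the labelled tissue were read in all libraries, with Epcam at 879 ± 60.2 and 959.5 ± 8.01 CPM and Krt8 at 1046 ± 164 and 978 ± 299.7 CPM (vector, then Jagged1; SD, n = 2), while the luminal keratin Krt19 had at most 1 count. Of the basal markers, Krt14 was read at 225 to 741 CPM and Trp63 at 5.88 to 19.7 CPM, whereas Krt5, Krt17 and Acta2 had at most 2, 5 and 6 counts in any library. CPM here are counts scaled to library size with TMM factors, which correct for differences in library composition.

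Each laminin is a trimer of 1 α, 1 β and 1 γ chain and is named by their numbers, so that laminin-511 holds α5, β1 and γ1. Laminins form the sheet to which epithelial cells attach, and the α chain carries most of the sites that integrins bind. Integrins are pairs of 1 α and 1 β chain: α3β1, α6β1, α7β1 and α6β4 bind laminins, α1β1, α2β1, α10β1 and α11β1 bind collagens, and α5β1, α8β1 and the αV pairs bind proteins with an RGD motif such as fibronectin and vitronectin. In epithelium α6β4 is the core of the hemidesmosome, and integrins with β2 or β7 are found on leukocytes.

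No laminin or integrin gene passed the adjusted threshold in the comparison of Jagged1 with vector cells. Of the 35 members 25 had enough counts to be tested, and 0 of them had an adjusted p under 0.05 in edgeR's quasi-likelihood test, against 0.00752% of all 13299 genes tested. At an unadjusted p under 0.05 stood 2 members, Lama4 and Itgb3, both with positive values, against 3.96% of all genes (1.8% higher and 2.15% lower). DESeq2 called 1 member, Itgb3, where it called 0.353% of all genes, and limma-voom called 0. The edgeR count of members was also 0 with a minimum mean of 5 CPM (0.00962% of all genes), with a replicate block (0.128%) and without Jagged1 1 (1.38%). In 6 members the Jagged1 pair lay wholly above the vector pair (Lama4, Lamc1, Itga6, Itga8, Itgb3 and Itgb8), against 13.9% of all genes, and in 3 wholly below it (Lama5, Lamb1 and Itgb2), against 15.1%. With total counts in place of TMM scaling, Lama5 and Lamb1 no longer separated and Itgb1 lay higher in both Jagged1 libraries. With 2 libraries against 2, an exact permutation test cannot go below p = 0.333, so none was run.

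**Figure D1:**
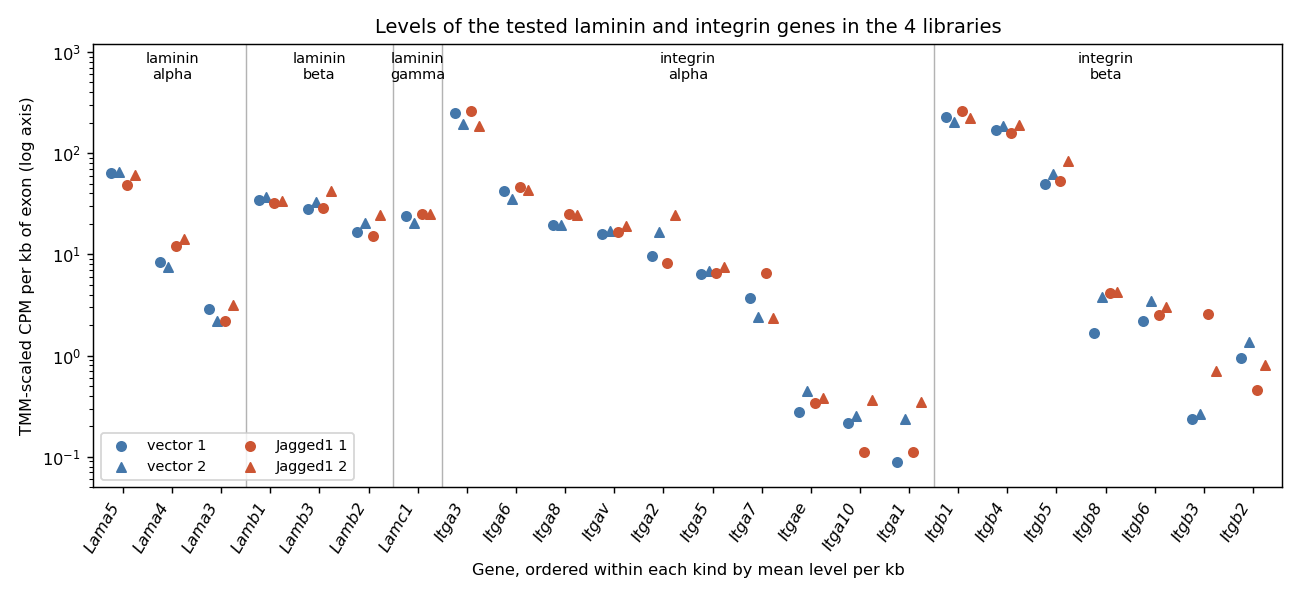
Levels of the tested laminin and integrin genes reported here in each of the 4 libraries, as TMM-scaled CPM divided by exon length in kb, on a log axis. Blue points are vector and red points Jagged1 libraries, with circles for library 1 and triangles for library 2; Itga3, Itgb1 and Itgb4 stand highest, and the 2 lines part visibly in Itgb3 and Lama4.

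Among the laminin α chains, Lama5 predominated and Lama4 was the one that differed most between the lines. Lama5, the α chain of laminin-511 and laminin-521 in most epithelial basement membranes, was at 64.8 ± 0.505 CPM per kb of exon in vector and 55.0 ± 9.06 in Jagged1 cells. Lama4, an α chain best known from blood vessels and mesenchyme, was at 7.93 ± 0.541 and 13.1 ± 1.496 CPM per kb, and Lama3, the α chain of laminin-332, at 2.52 ± 0.484 and 2.68 ± 0.657. These 3 levels kept one order in every library. Lama2, the muscle laminin chain, had 1 count in each Jagged1 library and 0 in the vector libraries. Lama1, an α chain of early embryos, had 0 counts in all 4 libraries, which allows a level of up to 0.145 to 0.244 CPM at a floor of 3 counts per library (counting error only).

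Lama4 (chromosome 10, 38965515 to 39110188, plus strand, GRCm38) had 1518 and 1119 counts in the vector libraries and 3012 and 2372 in the Jagged1 libraries. These correspond to 100.4 and 91.1 CPM against 146 and 171 CPM. Both Jagged1 libraries were the higher ones, and the gap between the lines was larger than the gap within either. The means were 95.7 ± 6.53 and 159 ± 18.1 CPM, a 1.66-fold gap, and the fitted log2 fold change was 0.73 ± 0.16 (SE; unadjusted p = 0.00534, adjusted p = 0.914, edgeR). With 1 library left out the log2 fold change lay between 0.61 and 0.84 and the adjusted p between 0.0668 and 1. The summed level of 9 fibroblast markers was highest in 1 of the same libraries. It was 4.63 and 7.25 CPM in vector, 10.7 in Jagged1 1 and 69.9 in Jagged1 2. Col1a2 and Col3a1, collagen genes of fibroblasts, had 280 and 83 counts in Jagged1 2 and 0 in each of the other libraries. Pdgfrb had 103 against 0, 0 and 9, Lum was at 0 throughout and Thy1 had at most 1 count. Pdgfra, most of the sum outside Jagged1 2, was highest in Jagged1 1. Its levels were 3.37 and 4.97 CPM in vector and 8.03 and 6.72 CPM in Jagged1 libraries. Without Jagged1 2, the log2 fold change of Lama4 was 0.61. Dropping a library takes out everything particular to it, and the part of the fibroblast markers in the Lama4 values was not tested. Of 8 endothelial markers, Cldn5, Emcn and Tie1 had no counts, while Cdh5 had 6 and 32 counts in vector and 10 and 84 in Jagged1 libraries. Pecam1 went the other way, at 4 and 1 counts in vector and 0 in both Jagged1 libraries. Esam had 5 to 12 counts per library, and Kdr and Tek had at most 3 and 1.

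Lama5 was lower in Jagged1 cells by less than its replicate spread. It had 11102 and 9113 counts in vector and 11437 and 9686 in Jagged1 libraries, or 734 and 742 CPM against 553 and 699 CPM. Jagged1 1 stood apart below the rest, and the log2 fold change was -0.24 ± 0.18 (adjusted p = 1, edgeR), or -0.08 without that library. As a share of the per-length level of all laminin α chains, Lama4 made up 10.99% and 10.1% in vector and 19.2% and 18.0% in Jagged1 libraries, and Lama5 85.2% and 87.0% against 77.3% and 77.98%. The Lama4 to Lama5 ratio per length was 0.129 and 0.116 in vector against 0.249 and 0.231 in Jagged1 libraries. This ratio could not overlap between the lines, since under TMM scaling Lama4 was higher and Lama5 lower in both Jagged1 libraries. These shares depend on the length assigned to each gene. With the longest coding transcript in place of all annotated exons, Lama4 made up 19.8% and 18.3% in the vector libraries and 32.2% and 30.5% in the Jagged1 libraries.

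The β and γ chains differed little between the lines. Lamb1, the β chain of laminin-511 and laminin-411, was at 345 and 370 CPM in the vector pair and 319 and 331 CPM in Jagged1 libraries (log2 fold change -0.14 ± 0.15). The lines did not overlap under TMM scaling, but overlapped with total counts. Lamc1, the γ chain of most laminins, was at 198 and 169 CPM in the vector pair and 208 and 205 CPM in Jagged1 libraries (0.17 ± 0.16). Its vector libraries differed more from each other than the nearer of them did from the Jagged1 pair. Lamb2, the β chain of laminin-521, ranged from 91.5 to 147 CPM and was highest in Jagged1 2 (0.09 ± 0.27). Lamc3, a γ chain of few tissues, had 6, 6, 4 and 2 counts and was not tested.

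Lama3 and Lamb3, the α and β chains of laminin-332, the anchoring laminin of skin and mammary epithelium, had overlapping levels in both lines. They lie outside the rule by which genes were named and were added after their values were seen. Lama3 was at 30.8 and 23.5 CPM in the vector pair and 23.8 and 33.8 CPM in Jagged1 libraries (log2 fold change 0.08 ± 0.25). Lamb3 was at 186 and 216 CPM against 192 and 282 CPM (0.24 ± 0.23). Neither line was the higher one throughout in these genes. Per length, Lama3 was below Lamb3 in every library, at 2.18 to 3.15 against 28.1 to 42.6 CPM per kb. Lamc1 lies on chromosome 1 (153218922 to 153332786, minus strand).

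Paired into trimers, the chains of laminin-511 were the most abundant set with lengths from all annotated exons, taking the lowest chain of each trimer as the measure. That chain was Lamc1, at 23.99 and 20.42 CPM per kb in vector and 25.1 and 24.8 in Jagged1 libraries. For laminin-521 the lowest chain was Lamb2 (15.0 to 24.2 CPM per kb over the 4 libraries), and for laminin-411 it was Lama4 (7.55 to 14.2). By this measure laminin-511 was above laminin-521 in every library, narrowly so in vector 2 (20.42 against 20.39 CPM per kb) and in Jagged1 2 (24.8 against 24.2). The order depends on the gene lengths used: with the longest coding transcript, Lama4 was above Lamc1 in Jagged1 2 (28.3 against 26.9 CPM per kb), so laminin-411 and laminin-511 shared Lamc1 as their lowest chain there. The measure describes transcripts, since protein chains were not assayed. Trimers with Lama1 or Lama2 had a chain at or under 1 count in every library, and laminin-423 and laminin-523 were limited by Lamc3, at or below 0.0802 CPM per kb.

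For the members with separated lines that have an entry in the RefSeq promoter table (GRCm38.p6) and a window outside the annotated gene, the bases before the start are shown, 5′ to 3′ on the gene's strand. They are Itga8 (chr2:12301945-12302194, minus strand), Lama5 (chr2:180225860-180226109, minus strand) and Lamb1 (chr12:31265043-31265233, plus strand, ended where the GENCODE gene begins). Capitals mark TGGGAA, the core bound by RBPJ, the DNA-binding partner of cleaved Notch, searched on both strands.
Itga8: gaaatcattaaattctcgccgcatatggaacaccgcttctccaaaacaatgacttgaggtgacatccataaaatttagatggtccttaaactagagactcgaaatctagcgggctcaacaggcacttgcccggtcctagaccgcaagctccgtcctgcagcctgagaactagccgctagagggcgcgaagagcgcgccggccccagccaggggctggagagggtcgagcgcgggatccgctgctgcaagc
Lama5: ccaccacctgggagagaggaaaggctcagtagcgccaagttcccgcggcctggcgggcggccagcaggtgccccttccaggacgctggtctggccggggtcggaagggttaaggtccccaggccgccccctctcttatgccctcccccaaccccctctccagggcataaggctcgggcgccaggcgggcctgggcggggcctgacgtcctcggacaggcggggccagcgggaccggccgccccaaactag
Lamb1: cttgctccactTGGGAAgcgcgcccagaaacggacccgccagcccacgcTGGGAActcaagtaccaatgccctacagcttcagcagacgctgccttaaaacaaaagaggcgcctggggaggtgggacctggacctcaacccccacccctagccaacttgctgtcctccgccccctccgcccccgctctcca

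The core stood at 2 places before Lamb1, 239 and 201 bases before the start given by RefSeq, and at none before Itga8 or Lama5. Of the 22 members with an entry outside chromosome 18, 3 held it in the 250 bases before a start (Lama2, Lamb1 and Lamb3). Counted by entry, as the promoters below are, 4 of 25 held it. The longer GTGGGAA was held by 0. Chromosome 18, where Lama3 lies, was left out of the search over members but not of that over all promoters. Over all 32841 promoters, 21.6% held TGGGAA and 5.41% GTGGGAA in a window of the same length. A match describes letters in the window, not a bound site.

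Ranked by the level per length of their lower chain, the laminin-binding integrins α3β1, α6β1 and α6β4 stood highest among the receptors. Their chains differed little between the lines. Itga3, the α chain of α3β1, had 21354, 13612, 30757 and 14752 counts, or 1412 and 1108 CPM in the vector pair and 1488 and 1065 CPM in Jagged1 libraries (log2 fold change 0.02 ± 0.23). Its 2 lines overlapped fully, since in each line one library was the higher by a similar margin. Itga6, the α chain of both α6β1 and α6β4, was at 380 and 319 CPM in the vector pair and 417 and 394 CPM in Jagged1 libraries. Here the lines were apart, by less than the vector libraries were from each other (0.21 ± 0.16, adjusted p = 1, edgeR), and without vector 2 the value was 0.09. Itgb4, the β chain of the hemidesmosome integrin, was at 1184 and 1288 CPM against 1113 and 1334 CPM (-0.01 ± 0.17). Itgb1, the common β chain that pairs with most α chains, was at 934 and 836 CPM in the vector pair and 1067 and 907 CPM in Jagged1 libraries (0.16 ± 0.17). Per length, Itga6 was the lower chain of both its receptors in every library, at 35.4 to 46.2 CPM per kb. Which chain of α3β1 is lower depends on the gene lengths used: Itga3 in the mean with all annotated exons, Itgb1 with the longest coding transcript.

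Itga7, the muscle α chain of α7β1, set 1 library apart. It was at 29.8 and 19.4 CPM in the vector pair and 53.2 CPM in Jagged1 1, but at 18.8 CPM in Jagged1 2, the lowest of the 4. The lines overlapped (0.55 ± 0.51), and the value was -0.39 without Jagged1 1 and 1.11 without Jagged1 2. The 10 basal mammary markers summed to 461 and 235 CPM in the vector pair and to 751 and 381 CPM in Jagged1 libraries, nearly all of it from Krt14 and highest in Jagged1 1. The other 2 tested markers of that list were highest in Jagged1 2, where Itga7 was lowest: Trp63 was at 5.88, 7.57, 7.21 and 19.7 CPM and Mylk at 0.661, 1.30, 1.55 and 3.97 CPM (vector 1, vector 2, Jagged1 1, Jagged1 2). The part of basal cells in the Itga7 values was not tested.

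**Figure D2:**
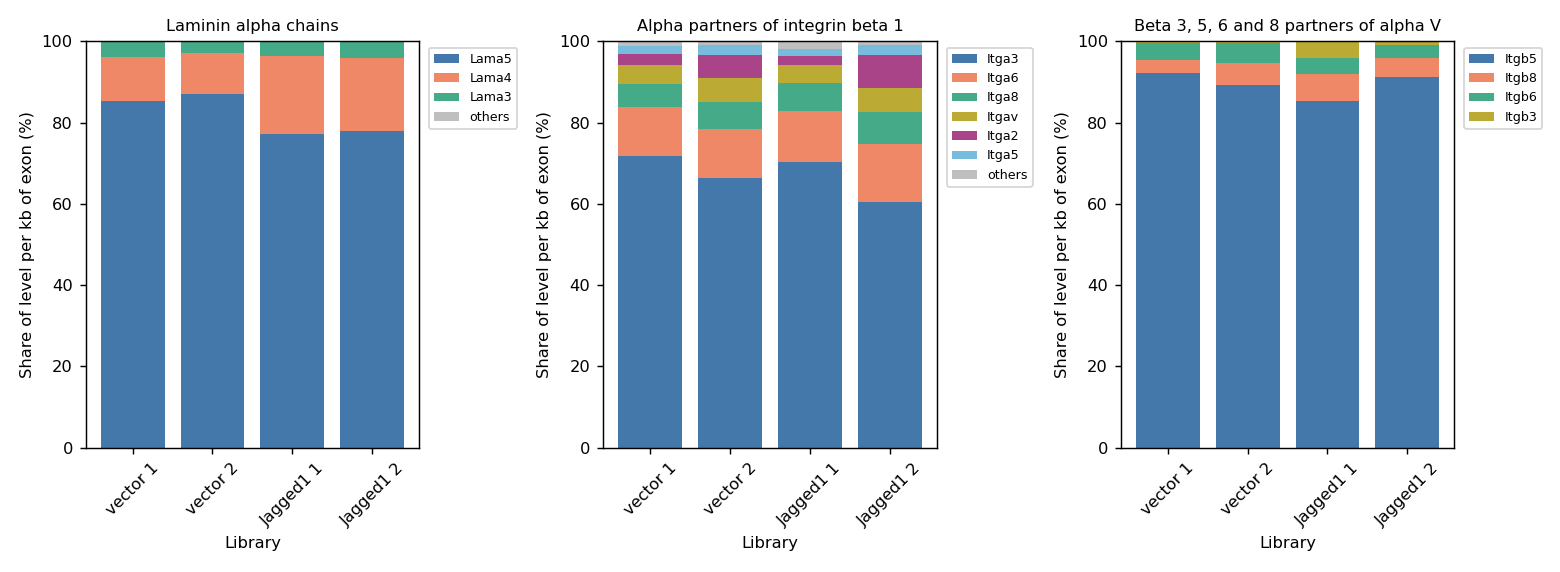
Share of each chain in the summed level per kb of exon, by library, for laminin α chains (left), α partners of integrin β1 (middle) and β3, β5, β6 and β8 as partners of αV (right). Lama4 takes 19.2% and 18.0% in the Jagged1 libraries against 10.99% and 10.1% in vector, while Itga3 and Itgb5 remain the main chains of their sets in all 4 libraries.

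Itga8 was higher in both Jagged1 libraries by a small and steady amount. This gene (chromosome 2, 12106632 to 12301922, minus strand) encodes the α chain of α8β1, a receptor for nephronectin that is best known from kidney and smooth muscle. It had 2164 and 1778 counts in vector and 3852 and 2472 in Jagged1 libraries, or 143 and 145 CPM against 186 and 179 CPM. The lines did not overlap, and the 2 libraries of each line were close together. The means were 144 ± 1.22 and 182 ± 5.59 CPM, a log2 fold change of 0.34 ± 0.14 that did not pass (unadjusted p = 0.0566, adjusted p = 1, edgeR). With 1 library left out it lay between 0.31 and 0.38. An antisense gene, E030013I19Rik, shares 5.05% of the exon bases of Itga8, and reads there could not be assigned without knowing the strand setting. Npnt, the nephronectin gene, averaged 4.62 ± 0.265 CPM against 7.53 ± 0.847 CPM (0.71 ± 0.29, adjusted p = 1, edgeR).

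The collagen-binding chains Itga2 and Itga1 varied more within the lines than between them. In each line both were higher in library 2 than in library 1. With a replicate block their log2 fold changes were 0.18 ± 0.21 and 0.46 ± 0.34 (SE, edgeR). Itga2, the α chain of α2β1, was at 68.0 and 118 CPM in the vector pair and 58.8 and 174 CPM in Jagged1 libraries. Jagged1 1 was the lowest and Jagged1 2 the highest of the 4, so the lines overlapped (0.33 ± 0.54), and the sign turned to -0.65 without Jagged1 2. Itga1, the α chain of α1β1, had 25, 54, 43 and 90 counts and the same order of levels within each line (0.50 ± 0.72). Without Jagged1 2 it was at -0.52, and without vector 2 at 1.35. Both genes lie side by side on chromosome 13, Itga1 at 114953096 to 115101964 and Itga2 at 114833081 to 114932100, on the minus strand. Itga10 had 12 to 26 counts per library and Itga11 at most 2.

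Among integrins that bind RGD proteins, the αV chain and β5, the most abundant of its partners after β1, did not separate the lines. Itgav was at 170 and 183 CPM in the vector pair and 180 and 204 CPM in Jagged1 libraries (0.12 ± 0.15). Itgb5, the β chain of the vitronectin receptor αVβ5, was at 176 and 221 CPM against 191 and 298 CPM (0.30 ± 0.26). Jagged1 2 was the highest library for both, and without it Itgb5 was at -0.05. Itga5, the α chain of the fibronectin receptor α5β1, was at 31.7 and 33.8 CPM against 32.2 and 37.3 CPM (0.08 ± 0.17). Itgb6, the epithelial partner of αV that activates latent TGF-β, had 238, 302, 373 and 299 counts and overlapped between the lines (-0.02 ± 0.27).

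Itgb3, the β chain of αVβ3, showed the largest fold difference of the 25 tested members and the largest gap between Jagged1 libraries. The gene (chromosome 11, 104608000 to 104670476, plus strand) encodes a chain known from platelets, endothelium and osteoclasts, where it pairs with αIIb or αV. It had 21 and 19 counts in the vector libraries, 316 in Jagged1 1 and 58 in Jagged1 2. These are 1.39 and 1.55 CPM in vector against 15.3 and 4.19 CPM. Both Jagged1 libraries lay above the vector pair, which agreed closely, but they were far from each other. The means were 1.47 ± 0.112 and 9.74 ± 7.85 CPM, a 6.64-fold gap, and the fitted log2 fold change was 2.73 ± 0.68 (unadjusted p = 0.00875, adjusted p = 0.925, edgeR). DESeq2 gave a like fold change of 2.74 ± 0.69 with an adjusted p of 0.0226. In edgeR the gene passed without the low-count filter (adjusted p = 5.94e-07, where 0.686% of all genes passed) and without Jagged1 2 (3.38 ± 0.40, adjusted p = 0.00982, where 0.352% passed). It did not pass without Jagged1 1, where the value was 1.51 ± 0.59 (adjusted p = 0.356), nor without vector 1 (adjusted p = 1) or vector 2 (adjusted p = 0.998).

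Even at its highest, Itgb3 was a minor partner of αV. Among β3, β5, β6 and β8, its share of the level per length was 0.438% and 0.377% in vector, 4.11% in Jagged1 1 and 0.772% in Jagged1 2. Markers of platelets and megakaryocytes, cells that carry much β3, were near the floor in all libraries: Gp6 and Gp9 had 0 counts, and the 7 markers summed to 0.726 to 1.87 CPM, with Jagged1 1 the lowest. Endothelial markers summed to 1.16 CPM in Jagged1 1 and 7.15 CPM in Jagged1 2, and fibroblast markers to 10.7 and 69.9 CPM. Of the endothelial sum in Jagged1 2, Cdh5 made up 6.07 CPM. Itgb3 was highest in Jagged1 1, and the part of such cells in its values was not tested.

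Itgb8, another partner of αV that activates latent TGF-β, had 281 and 517 counts in vector and 956 and 657 in Jagged1 libraries. Its levels were 18.6 and 42.1 CPM against 46.3 and 47.4 CPM. The lines were apart, but vector 2 lay near the Jagged1 pair and vector 1 well below it. Vector 1 also stood apart in the share of counts from the ribosomal RNA gene Rn18s, at 0.982% against 0.0735% to 0.177% in the other libraries, and the part of this in the Itgb8 values was not tested. The log2 fold change was 0.63 ± 0.38 (adjusted p = 1, edgeR), 0.18 without vector 1 and 1.33 without vector 2. In the list of latent TGF-β and its binding proteins, 7 of the 9 genes in the count table were tested and 0 passed. Their median was 0.44, with 5 positive values and 2 negative ones. The negative ones, named after their values were seen, were Tgfb1 at -0.26 ± 0.18, lower in both Jagged1 libraries, and Ltbp1 at -0.21 ± 0.198. Tgfb3, a TGF-β isoform with an RGD motif in its latent form, averaged 65.3 ± 1.86 CPM in the vector pair and 102 ± 10.5 CPM in Jagged1 cells (0.64 ± 0.16, unadjusted p = 0.00755, adjusted p = 0.914, edgeR), Ltbp2 was at 0.46 ± 0.25, Ltbp4 at 0.44 ± 0.28 and Tgfb2 at 0.49 ± 0.33.

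**Figure D3:**
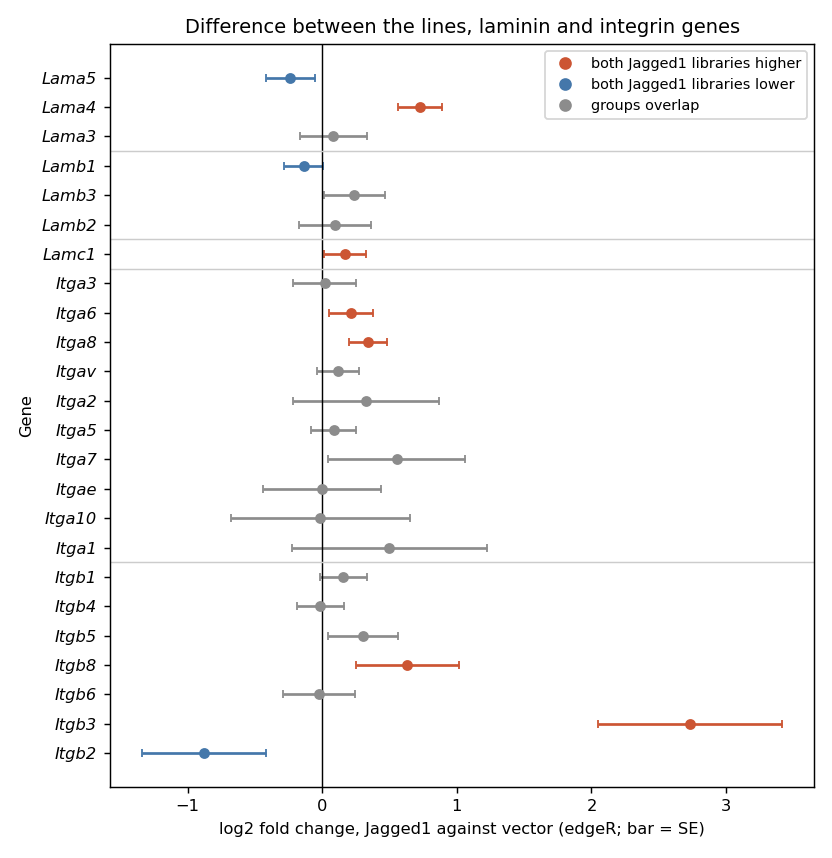
Log2 fold change of Jagged1 against vector for the tested members reported here, with bars of 1 SE from edgeR. Red marks the 6 genes with both Jagged1 libraries higher and blue the 3 with both lower under TMM scaling, of which Lama5 and Lamb1 overlap with total counts; Itgb3 stands at 2.73 and Lama4 at 0.73.

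Leukocyte integrin chains had low counts, and only Itgb2 and Itgae among them had enough to be tested. Itgb2, the common β chain of leukocyte integrins, had 44 and 51 counts in vector and 29 and 34 in Jagged1 libraries, or 2.91 and 4.15 CPM against 1.40 and 2.46 CPM. Both Jagged1 libraries were lower (-0.88 ± 0.46, adjusted p = 1, edgeR), and the value was -0.52 without Jagged1 1 and -1.32 without Jagged1 2. Its α partners Itgal, Itgam and Itgax had at most 1, 3 and 5 counts in any library, Itga4 and Itga9 at most 1, and Itgb7 at most 5. Itgae, which pairs with β7 to bind E-cadherin, had 19 to 32 counts (log2 fold change 0.00038 ± 0.44). Ptprc, the CD45 gene of all leukocytes, had at most 1 count. Cd14 made up most of the summed level of 11 macrophage markers (175 to 402 CPM), Lyz2 had 0 counts in the libraries numbered 1 and 71 and 89 in those numbered 2, and of 7 T cell markers in the table, 6 had no counts.

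As groups, the laminin genes tested had a median log2 fold change of 0.09 (8 genes), the α chains 0.17 (10 genes) and the β chains 0.16 (7 genes), beside -0.0025 over all tested genes. Positive values were seen in 19 of 25 members, against 49.5% of all genes. In 20 of the 25 the larger gap between replicates exceeded the difference between the lines, as it did in 80.9% of all genes. The exceptions were Lama4, Itga8, Itgb2, Itgb3 and Lamb1. The medians shifted with single libraries: without Jagged1 2 they were -0.11, 0.0029 and -0.05, while dropping Jagged1 1 gave 0.23, 0.196 and 0.11. Without vector 2 they were -0.02, 0.22 and 0.32, and without vector 1 they were 0.21, 0.07 and 0.17.

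**Figure D4:**
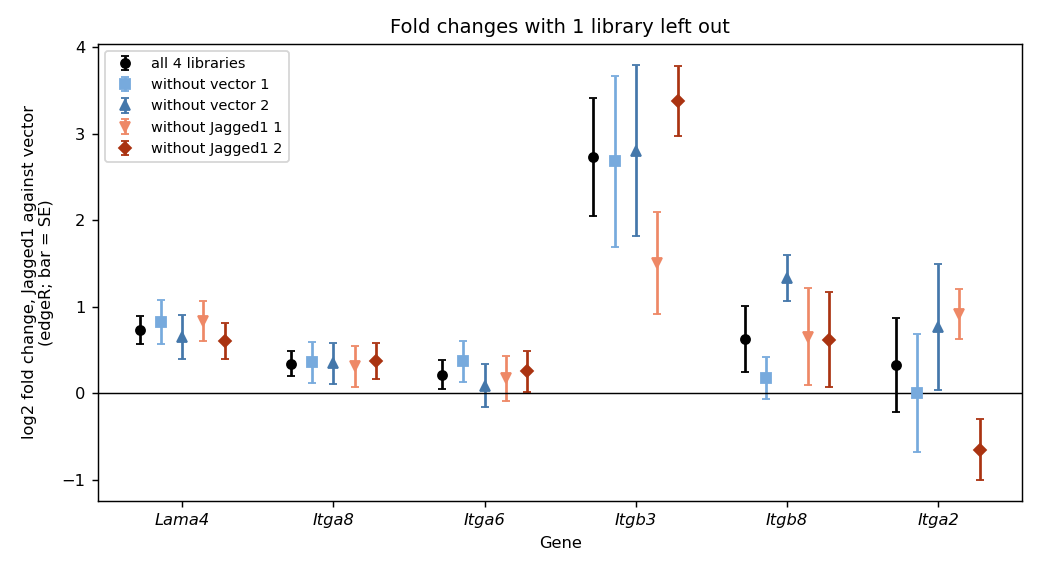
Log2 fold change of Jagged1 against vector for 6 members with all 4 libraries and with each library left out in turn, with bars of 1 SE from edgeR. Lama4 and Itga8 keep a narrow range of positive values, Itgb3 moves between 1.51 and 3.38, and Itga2 crosses 0.

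Other genes of the basement membrane and of integrin signalling, from lists chosen for this comparison, held 0 genes past the adjusted threshold. Of 19 basement membrane partners 15 were tested, with a median of 0.20, 12 positive and 3 negative. Bmp1, a protease that trims laminin and procollagen chains, was at 174 ± 21.02 and 230.1 ± 0.844 CPM (0.40 ± 0.16, unadjusted p = 0.0487, adjusted p = 1, edgeR). Pxdn, which cross-links collagen IV, was at 0.36 ± 0.15 and the collagen IV gene Col4a6 at 0.47 ± 0.20. Sparc, at 1.80 ± 0.95, overlapped between the lines, with 302 counts in Jagged1 2 and 28 to 73 in the other libraries. All 14 genes for other laminin receptors and the hemidesmosome that are in the count table were tested, with a median of -0.07. There Dag1, which encodes the laminin receptor dystroglycan, was at 599 ± 10.2 and 758 ± 46.8 CPM (0.34 ± 0.15), the syndecan gene Sdc1 at -0.25 ± 0.21 and Cd151, a tetraspanin that binds α3β1 and α6 integrins, at -0.13 ± 0.14.

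Of 34 integrin ligands outside the laminins 19 were tested, with a median of 0.10 and 12 positive values. The smallest p belonged to Edil3, a ligand of αVβ3 and αVβ5, at 1.999 ± 0.397 and 5.44 ± 1.47 CPM (1.45 ± 0.40, unadjusted p = 0.0124, adjusted p = 0.979, edgeR). Tnc, the gene of tenascin-C, was at 0.63 ± 0.23 and Npnt as given above, while Col1a1, at 3.26 ± 1.27, had 376 counts in Jagged1 2 and at most 36 in the other libraries. Among 38 genes of the adhesion complex at integrin tails 34 were tested, with a median of -0.02, and in 7 both Jagged1 libraries were lower, where 15.1% of all genes were, and in 3 both were higher, where 13.9% were. Tns2, a tensin, was at 82.5 ± 6.56 and 60.7 ± 6.501 CPM (-0.44 ± 0.16, unadjusted p = 0.0389, adjusted p = 1, edgeR), the focal adhesion kinase gene Ptk2 at -0.29 ± 0.14, Tns4 at -0.61 ± 0.31 and the scaffold gene Bcar1 at -0.26 ± 0.15. Of 15 integrin partners and trafficking genes 14 were tested, with a median of -0.11 and 11 negative values. These included both chains of the β1-binding CD98 transporter, Slc7a5 (-0.41 ± 0.14, unadjusted p = 0.0329, adjusted p = 1) and Slc3a2 (-0.38 ± 0.20), and the vesicle gene Rab25 (-0.27 ± 0.14) beside Emp2 (-0.20 ± 0.19).

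In the marker lists, 12 of 18 luminal genes were tested (median 0.02), 7 with positive and 5 with negative values. Those of smallest p were Gata3 at 0.41 ± 0.14, Elf5 at 0.60 ± 0.21, Cldn3 at -0.44 ± 0.36 and Cldn4 at -0.49 ± 0.41. Of 10 basal genes 3 were tested (median 0.99), with Mylk at 1.48 ± 0.66, Trp63 at 0.99 ± 0.51 and Krt14 at 0.69 ± 0.46. The fibroblast list had 2 tested genes of 9, the endothelial list 1 of 8, the macrophage list 5 of 11, the T cell list 1 of 7, the platelet list 0 of 7 and the neutrophil list 2 of 7. The neutrophil markers summed to 22.4 and 11.4 CPM in the vector pair and 1.98 and 39.9 CPM in Jagged1 libraries. Most of each sum was S100a8, at 19.6 and 10.5 CPM in vector and 1.69 and 33.4 CPM in Jagged1 libraries. Cxcr2 and Mpo had 0 counts in all libraries, and Ly6g, Elane and Csf3r had at most 1, 1 and 2. No marker gene passed the adjusted threshold. In bulk RNA, fewer cells of a type and less RNA per cell cannot be told apart.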

How the data were processed

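The authors deposited 1 table of unnormalised counts of reads by gene symbol, made with STAR 2.6.0c and featureCounts 1.6.2 on mm10 (GRCm38), per the submitters' processing notes. Annotation and strand setting: not given in the sources used here. In R 4.3.3, edgeR 4.0.16 served for the low-count filter (filterByExpr, minimum 10), TMM scaling and the test (glmQLFit, robust and legacy, with glmQLFTest) over all 13299 genes kept, using Benjamini-Hochberg adjustment at 0.05. The SE is the absolute log2 fold change over the square root of F. On simulated counts with the same spread set for every gene, the tests were checked for the size and sign of set fold changes. That check does not cover spread that differs between genes, as it does in these libraries. Alternatives were RLE factors, total counts, DESeq2 1.42.0, limma-voom (limma 3.58.1), other filters, a replicate block and each library left out. Levels per kb use the summed exons of GENCODE M21, in which 11 members share exon bases with another gene, up to 68.7% in Itgam and 33.5% in Itga10. Values in all libraries are given for members with an unadjusted p under 0.05 or separated lines, and for chains of laminin-511 and of receptors whose lower chain averaged at least 20 CPM. They are also given for Lama1, Lama2, Lama3, Lamb3, Lamc3, Itga1 and Itgb6, which lie outside that rule. From each list up to 4 genes of smallest p are named, and further list genes where their counts or levels are described. Members and lists were chosen with earlier results of these data known. Some genes, 1 member among them, enter the counts and fits but are not reported here by name.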

Additional observations from a re-analysis of the deposited data

How the results depend on the processing

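The count of members past the adjusted threshold was 0 with edgeR and 0 with RLE factors, total counts, limma-voom, a minimum mean of 5 CPM and the replicate block. It was 1 (Itgb3) with DESeq2 (log2 fold change 2.74) and without a filter (2.74), and between 0 and 1 with 1 library left out. Members with both Jagged1 libraries higher numbered 6, 10 without a filter, where 34 members entered, and 9 to 16 with 1 library left out. Those lower numbered 3, 1 with total counts, 5 without a filter and 4 to 7 with 1 library left out. Leaving out 1 library compares 1 library with 2 and so separates more genes. The share of all genes was computed only with the filter and TMM scaling (13.9% higher and 15.1% lower). The other counts have no such share beside them and cannot be read as a trait of the members. Without a filter the higher members took in Lama2, Itga9 and Itga11, with 0 counts in vector and 1 or 2 in each Jagged1 library. The lower ones took in Lamc3 and Itgax, at 2 to 6 counts per library. Leaving out 1 library moved the laminin median between -0.11 and 0.23, the α chain median between 0.0029 and 0.22 and the β chain median between -0.055 and 0.32. A lone library was assumed to vary like the other line. No scaling moved the median of all genes by more than 0.024. The replicate block left Lama4 at 0.72 (adjusted p = 0.149) and Itgb3 at 2.52 (0.271), and called 17 genes of 13299 in place of 1. The labels do not say that equal numbers mark shared handling. Differences between replicates correlated between the lines at r = 0.425 across all genes and 0.542 across the tested members. Of these 25 members 15 were higher in number 2 of both lines, against 34.3% of all genes. Lower in number 2 of both lines were 6, against 34.1%. Genes are not independent replicates. Depth limits the 10 untested members, which had at most 6 counts in any library. The gene length was exchanged after the data were seen.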
